A study of Mus musculus with 2 samples.

Results

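The genes described here are those that carry nascent secretory proteins into the endoplasmic reticulum (ER), remove their signal peptides and attach and first trim their N-linked glycans. They were chosen by symbol, from the Alg, Ssr, Spcs, Sec11, Srp and Srpr name families together with 15 named oligosaccharyltransferase, dolichol and glucosidase genes. The rule took 45 of the 18987 genes in the table. It used no measured value, but it was chosen with earlier results of these data known. The study sequenced RNA from RAW264.7 cells, a mouse macrophage-like line that forms osteoclasts under RANKL, the cytokine that drives their differentiation. Cells carrying an shRNA against Cpeb4 gave a library of 119350322 counts, and cells carrying a control shRNA gave one of 79399680 counts. Both cultures had 10% serum. They were plated at 7500 cells per cm2 and given 100 ng/ml RANKL 24 h later, and the series title puts collection at day 3. Each group is a single library, so all differences are between these libraries, with no replicate check, test or p-value. The sources used here do not say whether each shRNA line was a clone or a pool.

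A protein bound for the secretory pathway is recognised by its signal peptide, which the signal recognition particle binds as it leaves the ribosome. The particle docks at its receptor on the ER membrane, the chain enters the translocon, signal peptidase cuts off the signal, and the TRAP complex assists the entry of some chains. In parallel the ALG enzymes build an oligosaccharide on the lipid dolichol, oligosaccharyltransferase moves it to asparagines of the chain, and glucosidases and a mannosidase trim it during folding. Osteoclasts secrete large amounts of lysosomal enzymes and proteases, many of which are N-glycosylated.

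Counts were scaled by TMM and are given as CPM, counts brought to a common library total. The log2 ratio is that of the Cpeb4 shRNA library over the control shRNA library, and its 95% interval covers counting error only. Cpeb4, which encodes a CPEB-family RNA-binding protein, had 13491 counts (104 CPM) in the Cpeb4 shRNA library and 25270 counts (345 CPM) in the control shRNA library, a log2 ratio of -1.73. Osteoclast markers were also lower: 9 of 10 were at least 2-fold lower, against 11.8% of all genes past a mean of 1 CPM. The exception was Nfatc1, with 1578 CPM in the Cpeb4 shRNA library and 1637 CPM in the control shRNA library (-0.05). The median log2 ratio of the 10 markers was -2.14. Their summed level was 11299 CPM in the Cpeb4 shRNA library and 49814 CPM in the control shRNA library. Most of this sum came from Ctsk (4175 and 24234 CPM in the same order) and Acp5 (3304 and 15715 CPM). The part of the osteoclast marker difference in the results below was not tested. In bulk samples, fewer cells of a type cannot be told apart from less RNA per cell. Of 7 macrophage genes past a mean of 1 CPM, 5 were below 0, with a median log2 ratio of -0.38. Among them Csf1r had 1790 CPM in the Cpeb4 shRNA library and 2736 CPM in the control shRNA library (-0.61), and Cd68 was at -1.04, Itgam at -0.44 and Spi1 at -0.38, while Cd14 (0.35) and Lyz2 (11.4 CPM with the Cpeb4 shRNA, 5.71 CPM with the control shRNA) were higher. Of the macrophage markers that did not pass, Adgre1 had 101 counts in the Cpeb4 shRNA library and 12 counts in the control shRNA library. Fcgr1 went the opposite way, with 19 and 88 counts in the same order. Of listed markers of other cell types, 0 of 6 granulocyte and mast cell genes had a row, and 0 of 4 fibroblast and osteoblast genes with a row passed a mean of 1 CPM. The lymphoid genes past it were Sdc1 (6098 and 9999 counts), which other cells also express, and Lck (161 and 68 counts).

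With the Cpeb4 shRNA the 45 genes lay mostly lower, by less than 2-fold. All 45 passed the filter of a mean of at least 1 CPM, and the lowest mean was 12.3 CPM. A log2 ratio below 0 was found for 41 of 45 (91.1%), against 47.5% of the 12086 genes past the filter and 49.3% of the 8869 genes that averaged 10 CPM or more. Genes at least 2-fold lower numbered 7 of 45 (15.6%), against 11.8% of all genes past the filter and 10.2% of those averaging 10 CPM or more, so that share was near the background. Total-count scaling left 2 of these 7 (Prkcsh and Ssr3) and reference-gene scaling left 1 (Prkcsh). Under those scalings, 8.6% and 7.8% of all genes past the filter were 2-fold lower. None (0 of 45) was at least 2-fold higher, against 14.6% of all genes past the filter and 11.6% of those averaging 10 CPM or more. Total-count scaling and scaling to 20 reference genes each put Alg8 and Alg13 past 2-fold. Of all genes past the filter, 20.6% and 22.3% were 2-fold higher under those scalings. Under TMM the median log2 ratio of the 45 genes was -0.49, against 0.05 for all genes past the filter, a gap of -0.54. No library scaling changes that gap. Together they took 0.514% of all counts in the Cpeb4 shRNA library (0.512% to 0.515%, exact Clopper-Pearson interval) and 0.675% in the control shRNA library (0.673% to 0.677%). The number below 0 was 36 under total-count scaling and 34 under scaling to reference genes. Alg14, Ganab, Mogs, Spcs3 and Ssr1 turned above 0 under both, and Alg3 and Sec11c also did under reference-gene scaling.

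**Figure D1:**
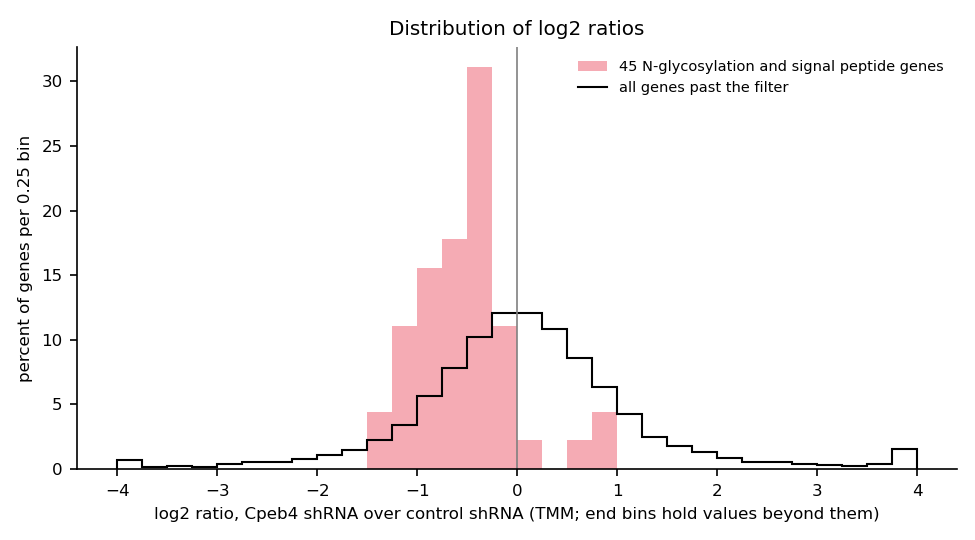
Percent of genes in each bin of 0.25 log2 units of the ratio of Cpeb4 shRNA over control shRNA, for the 45 genes (filled) and all 12086 genes past the filter (line); the outermost bins hold everything beyond them. The 45 genes lie between -1.39 and 0.90, and 14 of them fall in the bin from -0.5 to -0.25.

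The 6 role groups differed in how even their members were. Oligosaccharyltransferase had the lowest group median (-0.81), followed by the signal recognition particle and its receptor (-0.58) and the TRAP complex (-0.38). Signal peptidase and lipid-linked oligosaccharide assembly both had a median of -0.34, and glycan trimming -0.23, which was 0.007 under total-count scaling and 0.07 under reference-gene scaling. The lipid-linked oligosaccharide group was the one that held members above 0 under TMM.

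**Figure D2:**
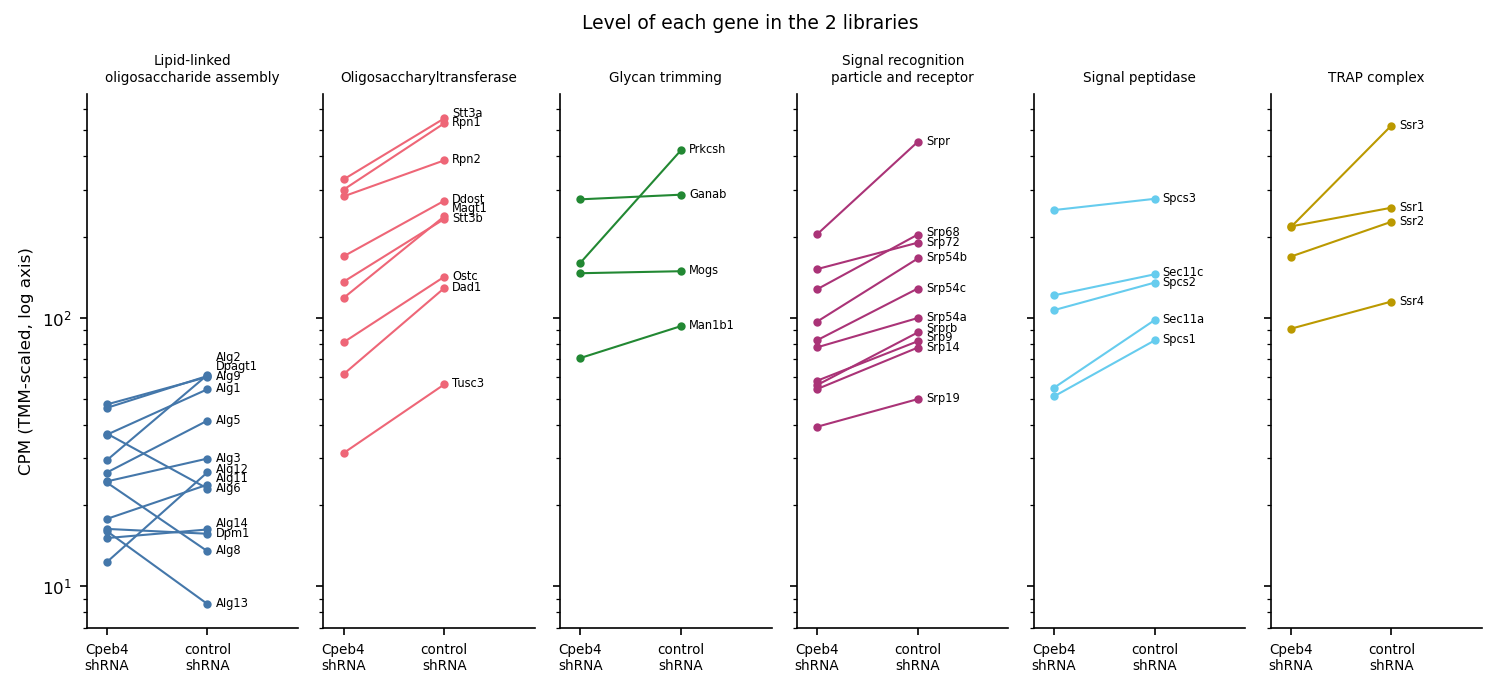
Level of each gene in CPM on a log axis, in the Cpeb4 shRNA library (left) and the control shRNA library (right), in 1 panel per role group. Lines slope upward to the right where a gene was lower with the Cpeb4 shRNA; the lines of Alg6, Alg8, Alg13 and, slightly, Dpm1 slope the other way.

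**Figure D3:**
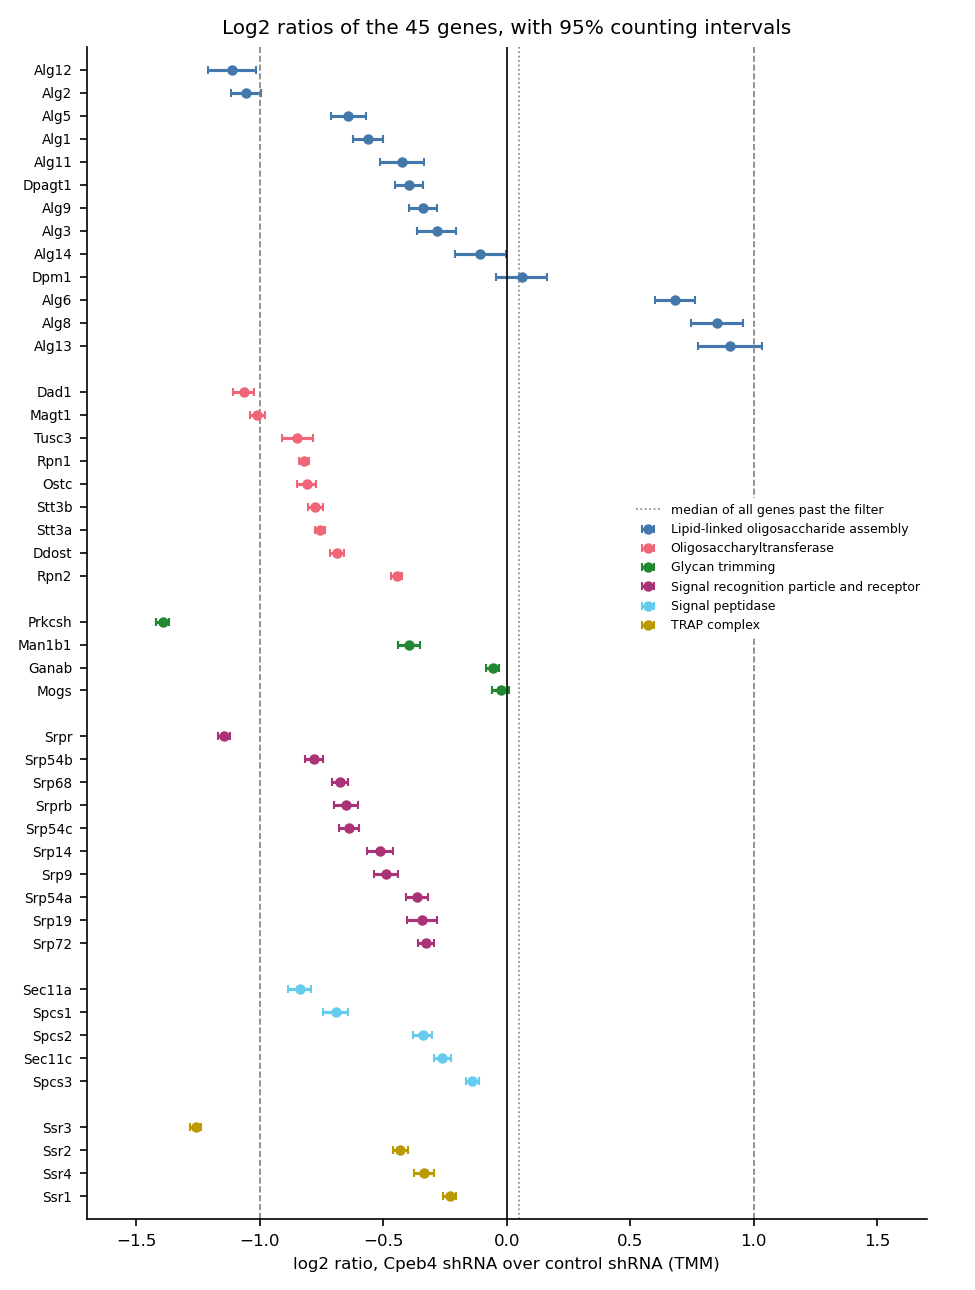
Log2 ratio of Cpeb4 shRNA over control shRNA for each of the 45 genes by role group, with 95% counting intervals. Dashed lines mark 2-fold, the dotted line the median of all genes past the filter (0.05); 7 genes lie left of the lower dashed line.

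Targeting to the ER membrane is the task of the signal recognition particle. All 10 genes of the particle and its receptor were below 0. Of these 10, 1 was at least 2-fold lower, near the share of 11.8% over all genes past the filter. That gene was Srpr, the receptor subunit that binds the particle, with 204 CPM in the Cpeb4 shRNA library and 452 CPM in the control shRNA library, a log2 ratio of -1.14 (-1.17 to -1.12). Srpr (ENSMUSG00000032042; mm10 chromosome 9, 35200175 to 35247973, plus strand) overlaps Tirap, Foxred1 and Fam118b on the other strand, and it is unknown whether reads were assigned by strand. Srprb, the membrane-anchored partner of Srpr, had 56.1 and 88.1 CPM in the Cpeb4 shRNA and control shRNA libraries, a ratio of -0.65. The smallest differences were those of Srp72 (152 CPM with the Cpeb4 shRNA against 190 CPM with the control shRNA, -0.33) and Srp19 (39.3 against 49.8 CPM, -0.34), both protein subunits of the particle. Srp68, which forms a heterodimer with Srp72, was at -0.68, and Srp9 and Srp14, the pair that binds the Alu domain of the RNA, were at -0.49 and -0.51.

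Srp54 is the GTPase subunit that holds the signal peptide, and in the mouse it is listed as 3 similar genes next to each other on chromosome 12. Of the 31-base words in Srp54c transcripts, 91.3% also occur in Srp54a and 96.0% in Srp54b. Fewer are shared the other way: 61.6% of Srp54a words and 77% of Srp54b words occur in Srp54c. Of Srp54a words, 72.5% occur in Srp54b. The split of reads among the copies is therefore uncertain. Srp54b was at -0.78, Srp54c at -0.64 and Srp54a at -0.36. Summed over the copies, Srp54 had 257 CPM in the Cpeb4 shRNA library and 394 CPM in the control shRNA library, a log2 ratio of -0.62 (-0.64 to -0.60).

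At the translocon, the TRAP complex showed 1 member well apart from its partners. Ssr3 (TRAP gamma; ENSMUSG00000027828, with no overlapping annotated gene) had 217 CPM in the Cpeb4 shRNA library and 519 CPM in the control shRNA library. Its log2 ratio was -1.26 (-1.28 to -1.24), a 2.39-fold lower level. The other subunits lay close together, Ssr2 at -0.43, Ssr4 at -0.34 and Ssr1 at -0.23. Per kilobase of exon union, Ssr3 stood at 52.0 CPM in the Cpeb4 shRNA library, below Ssr2 at 90.5, whereas in the control shRNA library it stood at 124, near Ssr2 at 122. With the longest annotated transcript as length, Ssr3 was below Ssr2 in both libraries (73.4 against 142 CPM per kilobase with the Cpeb4 shRNA, 176 against 191 with the control shRNA).

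Signal peptidase had a median log2 ratio of -0.34, close to that of the TRAP complex (-0.38). At least 2-fold lower were 0 of 5 genes, against 11.8% of all genes past the filter. With 5 genes this count cannot be told apart from that share. The alternative catalytic subunits were not alike. Sec11a had 54.8 CPM in the Cpeb4 shRNA library and 98.0 CPM in the control shRNA library, a log2 ratio of -0.84 (-0.89 to -0.79). Sec11c had 121 and 145 CPM in the same order, a ratio of -0.26 (-0.30 to -0.22). Sec11a overlaps Nmb on its own strand. Of the accessory subunits, Spcs1 was at -0.69, Spcs2 at -0.34 and Spcs3 at -0.14, with 252 CPM in the Cpeb4 shRNA library and 277 CPM in the control shRNA library.

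The dolichol-linked glycan is built in order, and the genes for its steps went different ways. Dpagt1, which makes the first sugar linkage to dolichol and is the target of tunicamycin, had 46.1 CPM in the Cpeb4 shRNA library and 60.7 CPM in the control shRNA library, a log2 ratio of -0.40 (-0.45 to -0.34). Alg13 and Alg14 together add the next N-acetylglucosamine. Alg13, the catalytic partner (ENSMUSG00000041718; chromosome X, 144317804 to 144374450, plus strand, overlapping Gm2214 on the other strand), had the highest ratio of all 45 genes, with 2077 counts (16.1 CPM) in the Cpeb4 shRNA library and 629 counts (8.59 CPM) in the control shRNA library, a log2 ratio of 0.90 (0.77 to 1.03). Alg14, the membrane anchor, was at -0.11 (-0.21 to -0.0014).

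Of the mannosyltransferases, Alg1, Alg2 and Alg11 work on the cytosolic face and Alg3, Alg9 and Alg12 in the lumen, and all 6 were below 0, Alg3 not under reference-gene scaling. Alg12 (ENSMUSG00000035845; chromosome 15, 88805244 to 88819318, minus strand) had 12.3 CPM in the Cpeb4 shRNA library and 26.6 CPM in the control shRNA library, a log2 ratio of -1.11 (-1.21 to -1.02). Alg2 (ENSMUSG00000039740; chromosome 4, 47465067 to 47474333, minus strand) had 29.5 CPM in the Cpeb4 shRNA library and 61.2 CPM in the control shRNA library, a ratio of -1.06 (-1.12 to -0.99). Alg1 followed at -0.56, Alg11 at -0.42, Alg9 at -0.34 and Alg3 at -0.28. Dpm1, the catalytic subunit that makes the mannose donor of the lumenal steps, was at 0.06 with an interval that held 0.

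Alg6 and Alg8, which add the first glucoses to the finished mannose core, were both higher. Alg8 (ENSMUSG00000035704; chromosome 7, 97371606 to 97392185, plus strand) had 24.3 CPM in the Cpeb4 shRNA library and 13.5 CPM in the control shRNA library, a log2 ratio of 0.85 (0.75 to 0.95). Alg6 had 37.0 CPM in the Cpeb4 shRNA library and 23.1 CPM in the control shRNA library, a ratio of 0.68 (0.60 to 0.76). Alg5, which makes the dolichyl-phosphate glucose that both use, went the other way, at -0.64 (-0.71 to -0.57), with 26.5 and 41.4 CPM in the Cpeb4 shRNA and control shRNA libraries. The 3 highest genes of the whole set, Alg13, Alg8 and Alg6, thus all belong to the ALG family, and all were above 0 under each of the 5 library scalings.

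Oligosaccharyltransferase transfers the finished glycan, and all 9 of its genes in the set were below 0 under each of the 5 library scalings. Under TMM they ran from -1.07 to -0.45. At least 2-fold lower were 2 of 9, Dad1 and Magt1, against 11.8% of all genes past the filter. With 9 genes this count cannot be told apart from that share. Neither gene was 2-fold lower under total-count or reference-gene scaling. Of the subunit genes outside the set, Krtcap2 (-0.03, with an interval that held 0) and Tmem258 (-0.18) were less different, and both turned above 0 under those scalings. The alternative catalytic subunits are Stt3a, which acts as chains enter the ER, and Stt3b, which can act later. Stt3a had 327 CPM in the Cpeb4 shRNA library and 552 CPM in the control shRNA library, a log2 ratio of -0.75 (-0.77 to -0.74), and Stt3b had 136 and 233 CPM in the same order, a ratio of -0.78 (-0.81 to -0.75). Their ratio to each other in counts was 2.40 in the Cpeb4 shRNA library and 2.37 in the control shRNA library.

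Among the shared subunits, Dad1 (ENSMUSG00000022174; chromosome 14, 54235479 to 54254104, minus strand) was lowest, with 61.6 CPM in the Cpeb4 shRNA library and 129 CPM in the control shRNA library, a log2 ratio of -1.07 (-1.11 to -1.02). Rpn2 was least different (283 and 385 CPM in the Cpeb4 shRNA and control shRNA libraries, -0.45), with Ddost at -0.69 between them. Rpn1 had the same deposited count, 38774, in both libraries, which at these depths is 300 CPM in the Cpeb4 shRNA library and 529 CPM in the control shRNA library, a ratio of -0.82. Magt1 and Tusc3 encode the alternative thioredoxin-like subunits of the Stt3b form. Magt1 (ENSMUSG00000031232; chromosome X, 105968084 to 106011906, minus strand) was at -1.01 (-1.04 to -0.98), with 118 and 238 CPM in the Cpeb4 shRNA and control shRNA libraries, and Tusc3 at -0.85 (-0.91 to -0.79), with 31.3 and 56.4 CPM in the same order. Ostc, a subunit of the Stt3a form, was at -0.81. The order of the 9 levels per kilobase of exon union was the same in both libraries, from Ddost (79.8 CPM per kilobase with the Cpeb4 shRNA, 129 with the control shRNA) through Rpn1, Rpn2, Stt3a, Stt3b, Ostc, Magt1 and Dad1 to Tusc3 (9.13 and 16.4). Per kilobase of the longest transcript, Ddost stood behind Rpn1 and Rpn2 in both libraries, and the order was not the same: Rpn2 was above Rpn1 with the Cpeb4 shRNA (103 against 82.5) and below it with the control shRNA (140 against 146).

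Trimming of the transferred glycan held the lowest gene of the set beside 2 of the least different. Glucosidase II consists of a catalytic subunit, encoded by Ganab, and a regulatory subunit that retains it in the ER, encoded by Prkcsh. Prkcsh (ENSMUSG00000003402; chromosome 9, 22002806 to 22014222, plus strand, also free of overlaps) had 160 CPM in the Cpeb4 shRNA library and 420 CPM in the control shRNA library. Its log2 ratio was -1.39 (-1.42 to -1.37), a 2.63-fold lower level, and it remained at least 2-fold lower under all 5 library scalings. Ganab had 276 and 287 CPM in the same order, a ratio of -0.06 (-0.08 to -0.03). Mogs, glucosidase I, was at -0.02 with an interval that held 0, and Man1b1, the ER mannosidase, at -0.39. Per kilobase of exon union, the ratio of Prkcsh to Ganab was 0.740 in the Cpeb4 shRNA library and 1.87 in the control shRNA library, or 1.01 and 2.54 per kilobase of the longest transcript.

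A difference between 2 genes within the same libraries is free of the choice of scaling. It was computed for 10 pairs of subunits or alternative paralogs, chosen with these values in view, using a normal interval on log counts. The interval left out 0 for 8 pairs, and 3 were at least 1 log2 unit apart. Prkcsh differed from Ganab by -1.34 (-1.37 to -1.30), Ssr3 from Ssr1 by -1.03 (-1.06 to -0.99) and Alg13 from Alg14 by 1.01 (0.84 to 1.17). Sec11a differed from Sec11c by -0.58 and Srpr from Srprb by -0.49. The interval held 0 for Stt3a against Stt3b (0.02, -0.01 to 0.06) and for Srp9 against Srp14 (0.02, -0.05 to 0.09), and these intervals leave room for a difference of less than 0.10. They cover counting error only, so how far such gaps vary between cultures is unknown.

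**Figure D4:**
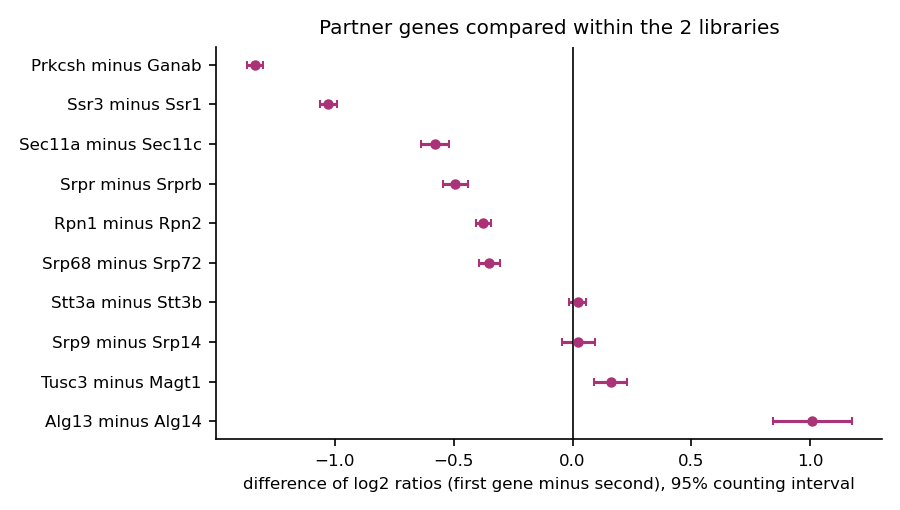
Difference of log2 ratios (Cpeb4 shRNA over control shRNA) within 10 pairs of partner genes, the first-named gene minus the other, with 95% counting intervals. Prkcsh lies 1.34 units below Ganab, Alg13 lies 1.01 above Alg14, and Stt3a and Stt3b coincide within the interval.

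Promoters were examined because most members were lower together and because ER stress factors bind known elements in such promoters. The RefSeq promoter table (GRCm38.p6, 250 bases before to 50 after the start) held 35 of the 45 genes. The ER stress response element (CCAAT and CCACG, 9 bases apart) was searched on both strands and found in 1 of the 35, Alg12, and in 14 of 8785 promoters of genes past the filter (0.159%). With the Cpeb4 shRNA, 9 of those 14 genes were 2-fold lower or more and 2 were 2-fold higher or more. Over all genes past the filter, these shares were 11.8% and 14.6%. The 14 genes had a median log2 ratio of -1.91, and ER chaperone genes such as Hspa5 (-3.09) and Hsp90b1 (-3.17) were among them. The related element ERSE-II (ATTGG and CCACG, 1 base apart) and the longer UPRE core (TGACG followed directly by TGG) were found in 0 of 35, against 0.102% and 1.06% of all promoters. The short core ACGTG, which the UPRE core contains, was found in 16 of 35 (45.7%) and in 30.3% of all promoters. It was present in 5 of the 6 members with an entry that were at least 2-fold lower under TMM. Alg6, which was higher (0.68), and Mogs (-0.02) and Ganab (-0.06), which were among the least different, held it too. Across all 2662 promoters with ACGTG, 304 genes were 2-fold lower or more and 337 were 2-fold higher or more, with a median log2 ratio of 0.01. A match is a run of letters and not a measured binding site.

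Shown are the promoter that holds the ER stress element, that of the lowest gene and that of the highest gene, each 5′ to 3′ on the gene's own strand. Capitals mark the fixed letters of the ER stress element in Alg12 and ACGTG, on either strand, in the others. They lie at chr15:88819269-88819568 (minus strand, Alg12), chr9:22002738-22003037 (plus strand, Prkcsh) and chrX:144317716-144318015 (plus strand, Alg13).
Alg12: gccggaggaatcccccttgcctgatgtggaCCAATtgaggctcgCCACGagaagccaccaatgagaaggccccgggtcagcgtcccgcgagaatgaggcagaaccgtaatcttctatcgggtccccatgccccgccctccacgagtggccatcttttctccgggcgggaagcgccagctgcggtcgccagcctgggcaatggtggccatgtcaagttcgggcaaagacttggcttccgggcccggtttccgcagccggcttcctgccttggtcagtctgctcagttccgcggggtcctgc
Prkcsh: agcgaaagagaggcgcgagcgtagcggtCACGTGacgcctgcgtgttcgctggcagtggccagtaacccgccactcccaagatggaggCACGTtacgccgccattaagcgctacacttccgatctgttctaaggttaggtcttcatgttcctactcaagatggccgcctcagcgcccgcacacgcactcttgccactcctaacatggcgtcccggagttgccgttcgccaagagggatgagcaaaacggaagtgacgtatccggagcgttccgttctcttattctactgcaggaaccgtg
Alg13: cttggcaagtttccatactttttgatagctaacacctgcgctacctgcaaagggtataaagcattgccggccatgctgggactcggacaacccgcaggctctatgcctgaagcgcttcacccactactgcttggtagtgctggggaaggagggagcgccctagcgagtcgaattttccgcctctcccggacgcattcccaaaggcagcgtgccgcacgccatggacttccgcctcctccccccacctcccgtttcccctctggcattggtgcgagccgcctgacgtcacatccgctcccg
The Prkcsh window holds 3 matches, 2 of them overlapping on opposite strands, and the Alg13 window holds 0. The element of Alg12 spans chr15:88819520-88819538 and begins 220 bases before its start. The same bases, read on the other strand, begin 126 bases before the start of Creld2, which encodes an ER-resident protein and is transcribed away from Alg12. Creld2 had 47.2 CPM in the Cpeb4 shRNA library and 492 CPM in the control shRNA library, a log2 ratio of -3.38 (-3.42 to -3.34), against -1.11 for Alg12.

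Since Cpeb4 encodes a protein that binds cytoplasmic polyadenylation elements, the longest annotated 3′ UTR of each gene (GENCODE M21) was searched for TTTTAT and TTTTAAT. At least 1 was present in 29 of the 45 genes (64.4%), against 62.9% of 10469 protein-coding genes past the filter. The median UTR length was 948 bases for the 45 genes and 1178 bases for all. The median density was 1.24 elements per kilobase for the 45 genes and 0.866 for all. Members with an element had a median log2 ratio of -0.51 and the 16 without one -0.44, while over all protein-coding genes the medians were 0.07 with an element and -0.05 without. Ssr3 held the most, 9 in 2313 bases, while Prkcsh, Alg12 and Srpr held 0. Which UTR is used in these cells was not measured.

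Among the related lists of genes outside the rule, the lowest median was that of sugar supply. Over all genes past the filter, 11.8% were 2-fold lower or more and 14.6% were 2-fold higher or more. Among the 10 sugar nucleotide genes that passed it, 3 were 2-fold lower or more and 0 higher. Their median log2 ratio was -0.91, against 0.05 for all genes. Gmppb, which makes GDP-mannose, had 17.5 CPM in the Cpeb4 shRNA library and 58.6 CPM in the control shRNA library (-1.74). Gfpt1, the entry enzyme of the hexosamine pathway, was at -1.19. The highest of that list were Mpi (0.22) and Uap1 (-0.23). Of 9 dolichol genes 1 was at least 2-fold lower, with a median of -0.47. Nus1, a subunit of the dolichol-making prenyltransferase, was lowest at -1.11, with 283 and 612 CPM in the Cpeb4 shRNA and control shRNA libraries, followed by the dolichol kinase gene Dolk (-0.73). Its catalytic partner Dhdds was highest at 0.09, and Dpm3 was at 0.00.

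At the translocon, 0 of 8 genes were at least 2-fold different, against 11.8% lower and 14.6% higher over all genes past the filter. The median was -0.42. Tram1 (82.9 CPM in the Cpeb4 shRNA library and 165 CPM in the control shRNA library, just inside 2-fold) and Sec63 (-0.81) were lowest, and Sec61b (0.09) and Tram2 (0.02) highest. The 4 further oligosaccharyltransferase genes had a median of -0.33, from Ost4 (-0.59) and Mlec (-0.47) to Tmem258 (-0.18) and Krtcap2 (-0.03). Genes for insertion by the tail-anchor and EMC routes had a median of -0.20, and 1 of 16 was 2-fold lower. Emc3 (-1.26) and Emc9 (-0.88) were lowest there, and Emc1 (0.40) and Get4 (0.23) highest.

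Every related list except sugar supply had a median nearer to that of all genes than the members did. The glycosylphosphatidylinositol anchor, other glycosylation and Golgi lists were the nearest. Of 17 genes for Golgi processing of N-glycans, 4 were at least 2-fold lower and 1 higher, against 11.8% and 14.6% of all genes past the filter. Their median was -0.18. The branching enzyme gene Mgat5 (-1.28) and Mgat1 (-1.21) were lowest. Man1a, a Golgi mannosidase gene, had 1827 counts in the Cpeb4 shRNA library and 104 counts in the control shRNA library (3.31), and Man2a2 followed at 0.77. For glycosylphosphatidylinositol anchor genes the median was -0.06 and 1 of 24 was 2-fold lower, from Pigk (-1.26) and Piga (-0.98) to Pigf (0.70) and Gpaa1 (0.84). The median of other glycosylation genes was also -0.06, and 1 of 13 was 2-fold lower, from Galnt6 (-2.32) and C1galt1c1 (-0.90) to Pomt1 (0.29) and Galnt4 (0.36). The medians of the Golgi, tail-anchor, anchor and other glycosylation lists were above 0 under total-count and reference-gene scaling.

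**Figure D5:**
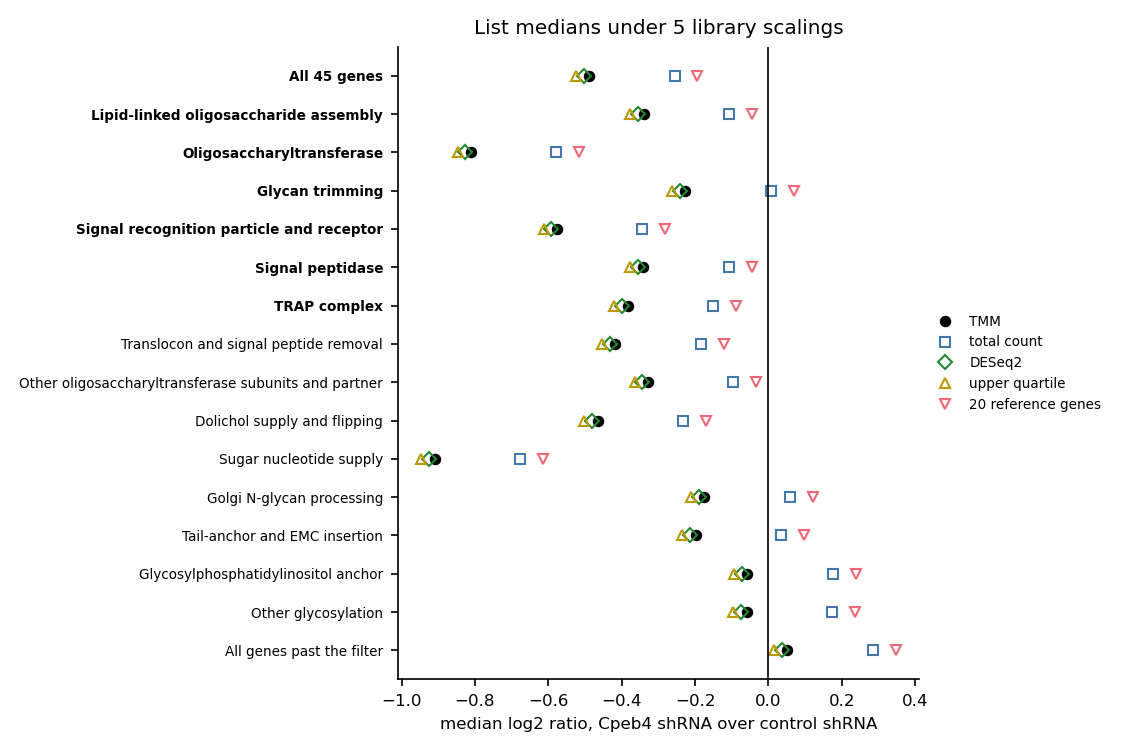
Median log2 ratio of Cpeb4 shRNA over control shRNA for the 45 genes and their role groups (bold) and for the related lists, under 5 library scalings. Each scaling moves every point of a colour by the same amount, so the order of the lists is kept; oligosaccharyltransferase is at -0.81 under TMM and -0.52 under reference genes.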

How the data were processed

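RNA from 2 libraries, 1 per shRNA, had been sequenced. The submitters' processing notes name HISAT2 and the mm10 build. The aligner version, counting tool, annotation and strand handling are not given in the labels or notes. Whole-number counts per gene were deposited by the authors, and no listed gene was at 0 in either library. Genes at 4 counts outnumber those at 3 or 5 (364 against 282 and 205 with the Cpeb4 shRNA, 585 against 444 and 286 with the control shRNA), so the counts may be estimates; the members had 629 counts or more.

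Counts were scaled by TMM (edgeR 4.0.16, R 4.3.3; factors 1.08 with the Cpeb4 shRNA, 0.922 with the control shRNA), and genes averaging 1 CPM or more were kept. Intervals are exact Clopper-Pearson 95% intervals of the 2 counts; PCR copies are not independent molecules, so intervals cover counting error only. With 1 library per group no test was made, and a 2-fold rule of size was used. The median interval was 0.09 log2 units wide over the members, and the widest was 0.26.

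Coordinates, lengths, overlaps and UTRs came from GENCODE M21 (GRCm38, which mm10 names), holding 18954 of 18987 identifiers; 21 of the 45 members overlap another annotated gene. Exon-union length was used for levels per kilobase. Promoters were RefSeq's, of which 3 are printed and the others are not reported here; Alg2, Alg11, Dpagt1, Ostc, Sec11c, Spcs3, Srp19, Srp68, Ssr2 and Tusc3 had no entry.

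Members and lists were chosen with earlier results of these data known. Named in full were the 2 highest and 2 lowest of each role group and list and a fixed set of catalytic and receptor genes. Alternatives were total-count, DESeq2 1.42.0, upper-quartile and reference-gene scaling, pseudocounts of 0.5 and 2 CPM, other filters and folds, summed Srp54 copies and another length. Computations were tested on simulated data.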

Additional observations from a re-analysis of the deposited data

How the results depend on the processing

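No paired analysis was possible because a single library stands for each shRNA and nothing was tested. DESeq2 size factors, both pseudocounts and summing the Srp54 copies kept 41 members below 0 (39 of 43 with the copies summed) and moved the count at least 2-fold lower to no less than 5. Total-count scaling adds 0.23 to every log2 ratio and reference-gene scaling adds 0.30, by construction. Under these, members at least 2-fold lower numbered 2 (Prkcsh, Ssr3) and 1 (Prkcsh), members at least 2-fold higher 2 and 2 (Alg8, Alg13), and the members' median was -0.26 and -0.19. The median of all genes past the filter was 0.28 and 0.35, with 36.1% and 33.1% below 0. Past 2-fold, total-count scaling gave 1039 genes lower and 2487 higher, and reference-gene scaling gave 946 lower and 2700 higher. Among genes past 2-fold, 55.4% were higher under TMM, 70.5% under total-count scaling and 74.1% under reference-gene scaling. Cpeb4 was at -1.49 and -1.43, and at -1.76 under upper-quartile scaling.

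Under total-count and then reference-gene scaling, the role group medians were -0.11 and -0.045 for lipid-linked oligosaccharide assembly, -0.58 and -0.52 for oligosaccharyltransferase, 0.0069 and 0.069 for glycan trimming, -0.34 and -0.28 for the signal recognition particle, -0.11 and -0.046 for signal peptidase, and -0.15 and -0.089 for TRAP. The related medians were -0.18 and -0.12 for the translocon, -0.095 and -0.033 for further oligosaccharyltransferase genes, -0.23 and -0.17 for dolichol, -0.68 and -0.61 for sugar supply, 0.058 and 0.12 for the Golgi, 0.035 and 0.098 for tail-anchor and EMC, 0.18 and 0.24 for the glycosylphosphatidylinositol anchor, and 0.17 and 0.24 for other glycosylation. Upper-quartile scaling gave -0.85 for oligosaccharyltransferase, -0.26 for trimming and -0.42 for TRAP.

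At 1.5-fold, 20 members were lower and 3 higher, among 2674 and 3191 genes. At 4-fold, 0 members were lower, among 426 lower and 582 higher genes. With the interval limit past 2-fold, 5 members were lower, without Alg2 and Magt1. Unfiltered, 2930 genes were lower and 3217 higher past 2-fold; among those averaging 10 CPM or more, 907 were lower and 1025 higher, where the anchor list had a median of -0.15 and other glycosylation 0.035. Taking the longest transcript as length raised or kept the members' levels per kilobase: 76 of them moved by more than the counting interval and 14 did not. Per effective library size, the members' share was 0.474% with the Cpeb4 shRNA and 0.732% with the control shRNA. Depth did not limit the members, but variation between cultures is unmeasured.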

Other observations

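Several members share a start region with a gene read the other way. Among genes past the filter, 11 pairs of a member and a neighbour on the opposite strand had annotated starts within 1000 bases of each other, a search added after the data were seen. Both genes were below 0 in 6 pairs, both above 0 in 1, and in 4 the member was below 0 and the neighbour above. All but 1 of these members were below 0, so the split rests on the neighbours. Of the 11 neighbours 6 were below 0, against 47.5% of all genes past the filter. Dad1 and Abhd4, a lipid hydrolase gene 84 bases away, were at -1.07 and -1.47, and Ssr4 and Idh3g, a mitochondrial dehydrogenase subunit gene, at -0.34 and -0.30. Alg2 (-1.06) and Sec61b, a translocon subunit gene that starts 325 bases away, had unlike ratios, with Sec61b at 0.09. Alg5 and the RNA exosome gene Exosc8, 146 bases apart, were farther from each other, at -0.64 and 2.16. Exosc8 had 6304 counts in the Cpeb4 shRNA library and 796 counts in the control shRNA library. Of the 11 pairs 4 were at least 1 log2 unit apart. These are values of 2 libraries with no replicate.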
